A study of Mus musculus with 4 samples.

Results

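DNA repair and checkpoint genes were followed as a set of 39 named genes of mismatch repair, homologous recombination, the Fanconi pathway, checkpoint signalling, end joining and single-strand break repair. They were chosen by name and role, with earlier results of these data known. Of the 39 genes, 38 had a probe that could be paired with their symbol, and 37 were tested among 20049 genes of the array. Rad51c, a recombination gene, had no paired probe and was not analysed here. The probe of Chek1, which encodes the checkpoint kinase acting below ATR, was well above background on 1 of 4 arrays in the R/R channel and on 1 of 4 in the WT channel, and Chek1 was not tested.

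R/R cells are homozygous for the point mutations R24C in Cdk4 and R31C in Cdk6, and wild-type (WT) cells have neither. Both kinds are mouse fetal liver cells transformed with a p185BCR-ABL1 transgene, which encodes a leukaemia-type fusion kinase. Their strain background is C57BL/6J crossed with CD-1. Each line was a spontaneously immortal clone, and RNA came from asynchronous cultures. R/R clones 1, 2 and 3 (Cy5) were each hybridised against a WT pool (Cy3) on 1 array, and an R/R pool (Cy3) against the WT pool (Cy5) on the remaining array. What the pools held is not stated, and the ids of clones 1 and 2 share their first part.

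Cells repair broken or miscopied DNA by separate routes. Mismatch repair removes copying errors behind the replication fork, homologous recombination copies an intact sister chromatid in S and G2 phase, end joining ligates broken ends without a template, and the Fanconi pathway unhooks crosslinks between strands. The kinases ATM and ATR detect breaks and stalled forks and hold the cell cycle through CHK2 and CHK1. In developing B cells, end joining also seals the breaks made during antibody gene rearrangement. CDK4 and CDK6 release E2F factors from RB, and many replication and repair genes are known E2F targets. The R24C and R31C substitutions are known to prevent INK4 inhibitors from binding the kinases.

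Values are log2 ratios of R/R over WT, so that 1 unit is a doubling and a value above 0 is higher in R/R. They are given in the order clone 1, clone 2, clone 3 and R/R pool, with the sign of the dye-swapped pool array turned. The fitted value is the mean of the clone average and the pool. Its SE comes from the spread of the 3 clones, moderated over all genes, because the dye term fits the single pool array exactly. A difference between the pool and the clones therefore does not enter the SE, the interval or the p-value. The pool was fitted as an independent array, and if it held RNA of the same clones it would not be an independent sample for the fitted values, the p-values and the counts over 4 arrays. Every array carries the same WT pool, so the tests leave out the spread of the control. The R/R pool is also the only dye-swapped array, and the effect of the dye and of the pool cannot be told apart. Spots that repeat 1 probe on the same array differed by a median SD of 0.0904 to 0.0997, while the median SD over the 3 clones was 0.17 for all genes and 0.15 for the 37 tested here. All 10 early B lineage markers lay above background on every array, against 0 of 4 hepatocyte markers, 1 of 6 erythroid markers, 3 of 6 myeloid markers (Mpo and Cebpa on none) and 3 of 5 T lineage markers. Of these markers 1 was called, the beta-globin gene Hbb-bt, lower in R/R at -1.84 (limma adjusted p = 0.0416). Gata1, also erythroid, lay above background on 4 of 4 arrays in the WT channel and 0 of 4 in R/R, at -0.21 (limma adjusted p = 0.333). The remaining 4 of 6 erythroid markers lay above background on no array. The part of these erythroid markers in the values below was not tested.

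None of the 37 repair and checkpoint genes passed the test, in either direction (limma, Benjamini-Hochberg adjusted p under 0.05 over all genes). Over all 20049 genes the test called 30 higher and 75 lower in R/R, or 0.524% (2 and 28 when arrays were only centred on their median, and 6 and 44 with the scanner's own ratios). At an unadjusted p under 0.05, 7 of the 37 genes were above 0 and 4 below, or 29.7%, beside 15.4% of all genes. Fitted values of 24 of the 37 (64.9%) lay above 0, compared with 46.4% of all genes, and the medians were 0.04 and -0.02. All 37 had a symbol, against 12299 of the 20049, so the background of all genes also holds unnamed ones. The contrast was smaller against named genes with a matched promoter sequence. Of these, 4728 of 9393 without letters known for E2F factors lay above 0 (median 0.0014), as did 241 of 442 with them (median 0.02). The same sign on all 4 arrays was seen for 13 of the 37 genes (35.1%), 7 above 0 and 6 below, beside 30.8% of all genes. In the main fit, no 95% interval of the 37 genes reached below -0.78 or above 0.83. These intervals hold for that processing only. With the scanner's own ratios Xrcc4 had 0.82, above its interval end of 0.79, and Brca1 -0.51, below its interval of -0.19 to 0.26. In bulk RNA, fewer cells that express a gene and less RNA per cell cannot be told apart.

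**Figure D1:**
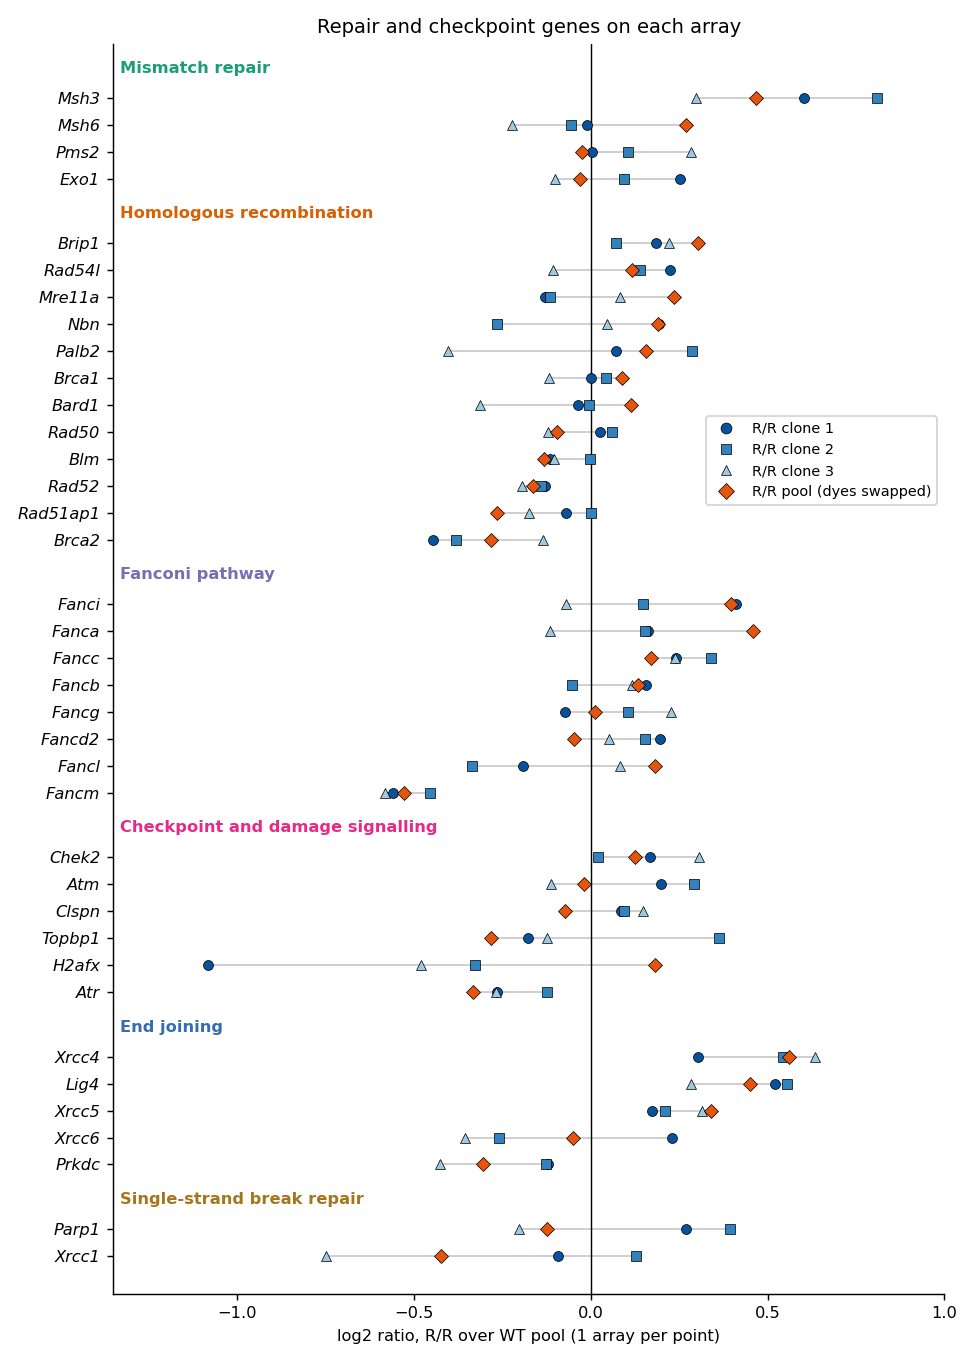
Log2 ratio of R/R over the WT pool (horizontal axis) for each of the 37 tested genes, 1 point per array, with blue points for the R/R clones and orange diamonds for the dye-swapped R/R pool. Genes are sorted by fitted value within each group. Fancm lies below -0.45 on every array, while Msh3, Lig4 and Xrcc4 lie at 0.28 or above on every array.

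The genes with the smallest p were Fancm, below 0, and Xrcc4, Lig4 and Msh3, above 0. Fancm encodes the DNA translocase that anchors the Fanconi core complex at stalled forks. Its ratios were -0.56, -0.45, -0.58 and -0.53, all below 0 and close together, and the fit gave -0.53 ± 0.09 (1.44-fold higher in WT, 95% interval -0.75 to -0.31, limma adjusted p = 0.0934). Fancm ranked 498th from the lowest of 20049 genes. Its log2 signal was 7.68, 7.79, 7.59 and 7.84 in the R/R channel, against 8.24, 8.24, 8.17 and 8.37 in the WT channel, which held the same pool on each array, and the channels did not overlap. R/R and WT signals did not overlap for 8 of the 37 genes (21.6%), 6 of them higher in R/R, beside 14.0% of all genes.

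Xrcc4 and Lig4 encode the scaffold and the ligase that together seal broken ends in end joining. Xrcc4 had ratios of 0.30, 0.54, 0.63 and 0.56, lowest in clone 1, and a fitted value of 0.53 ± 0.10 (1.44-fold, 95% interval 0.27 to 0.79, limma adjusted p = 0.124). Lig4 had ratios of 0.52, 0.56, 0.28 and 0.45, lowest in clone 3, and a fitted value of 0.45 ± 0.10 (1.37-fold, 95% interval 0.21 to 0.70, limma adjusted p = 0.147). The clone with the lowest ratio was therefore not the same for both partners. The log2 signal of Xrcc4 was 7.58, 8.04, 7.77 and 7.78 in the R/R channel, against 7.28, 7.5, 7.13 and 7.22 in the WT channel. For Lig4 the signals were 8.5, 8.62, 8.2 and 8.3 in R/R and 7.98, 8.06, 7.92 and 7.84 in WT. Both genes are among those 8.

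Msh3 encodes a mismatch repair protein that recognises insertion and deletion loops. Its ratios were 0.60, 0.81, 0.30 and 0.47, highest in clone 2 and lowest in clone 3, and the fit gave 0.52 ± 0.12 (1.43-fold, 95% interval 0.21 to 0.83, limma adjusted p = 0.164). The log2 signal of Msh3 was 10.2, 10.67, 10.01 and 10.21 in the R/R channel, against 9.6, 9.86, 9.71 and 9.74 in the WT channel. Dimmer Msh3 probes gave fitted values of 0.31 and 0.21, and the dimmest was -0.03 in clone 2.

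These 4 genes were called in a fit without the dye term, which counts the pool as another replicate. There Fancm had -0.53 (limma adjusted p = 0.0110), Xrcc4 0.51 (0.0206), Lig4 0.45 (0.0255) and Msh3 0.54 (0.0274). That fit called 1140 of 20049 genes, or 5.69%, and no other gene among the 37. In the main fit, with its dye term, these genes were not called with 1 clone left out at a time either. There the limma adjusted p stayed between 0.0835, for Msh3, and 0.399, for Lig4.

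The 250 bases before the start of Fancm, Xrcc4 and Lig4 show where letters known for E2F, CCAAT and NRF1 factors lie, or do not lie, near genes with the smallest p. Msh3, whose stretch is not shown, was the only one of the 4 genes with an E2F word, in overlapping matches at -202 and -198. The sequences come from RefSeq, build GRCm38.p6, 5′ to 3′ on the strand of the gene. Capitals mark the letters searched for on both strands: TTTCCCGC, TTTCGCGC, TTTGCCGC and TTTGGCGC for E2F, CCAAT for the CCAAT box, and GCATGCGC for NRF1. The motifs were chosen after the values had been seen. The stretches lie at chr12:65075353-65075602 on the plus strand (Fancm) and, on the minus strand, at chr13:90089609-90089858 (Xrcc4) and chr8:9977681-9977930 (Lig4).
Fancm: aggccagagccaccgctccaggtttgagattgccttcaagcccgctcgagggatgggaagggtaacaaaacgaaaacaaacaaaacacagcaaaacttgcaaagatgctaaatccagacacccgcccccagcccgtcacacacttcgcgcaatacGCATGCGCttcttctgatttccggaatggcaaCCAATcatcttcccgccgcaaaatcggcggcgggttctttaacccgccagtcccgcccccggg
Xrcc4: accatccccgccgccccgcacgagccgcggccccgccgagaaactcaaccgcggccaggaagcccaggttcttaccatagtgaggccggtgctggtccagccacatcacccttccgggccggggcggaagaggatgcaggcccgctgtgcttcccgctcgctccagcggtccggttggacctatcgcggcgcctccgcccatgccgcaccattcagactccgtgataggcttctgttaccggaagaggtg
Lig4: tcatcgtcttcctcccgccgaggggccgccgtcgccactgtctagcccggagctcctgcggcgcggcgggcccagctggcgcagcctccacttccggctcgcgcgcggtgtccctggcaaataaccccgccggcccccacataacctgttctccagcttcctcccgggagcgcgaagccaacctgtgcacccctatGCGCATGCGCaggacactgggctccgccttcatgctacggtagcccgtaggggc
Positions are counted from the start, with -1 as the base before it. The start used for Fancm lies inside the span of the gene, which begins at chr12:65074110. Its stretch is therefore not the sequence before the first base of that span. Fancm held a CCAAT box at -63 and an NRF1 word at -95. Lig4 held overlapping NRF1 words on opposite strands at -54 and -52, and the Xrcc4 stretch held none of the letters. A match is a description of letters, not of a bound site.

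**Figure D2:**
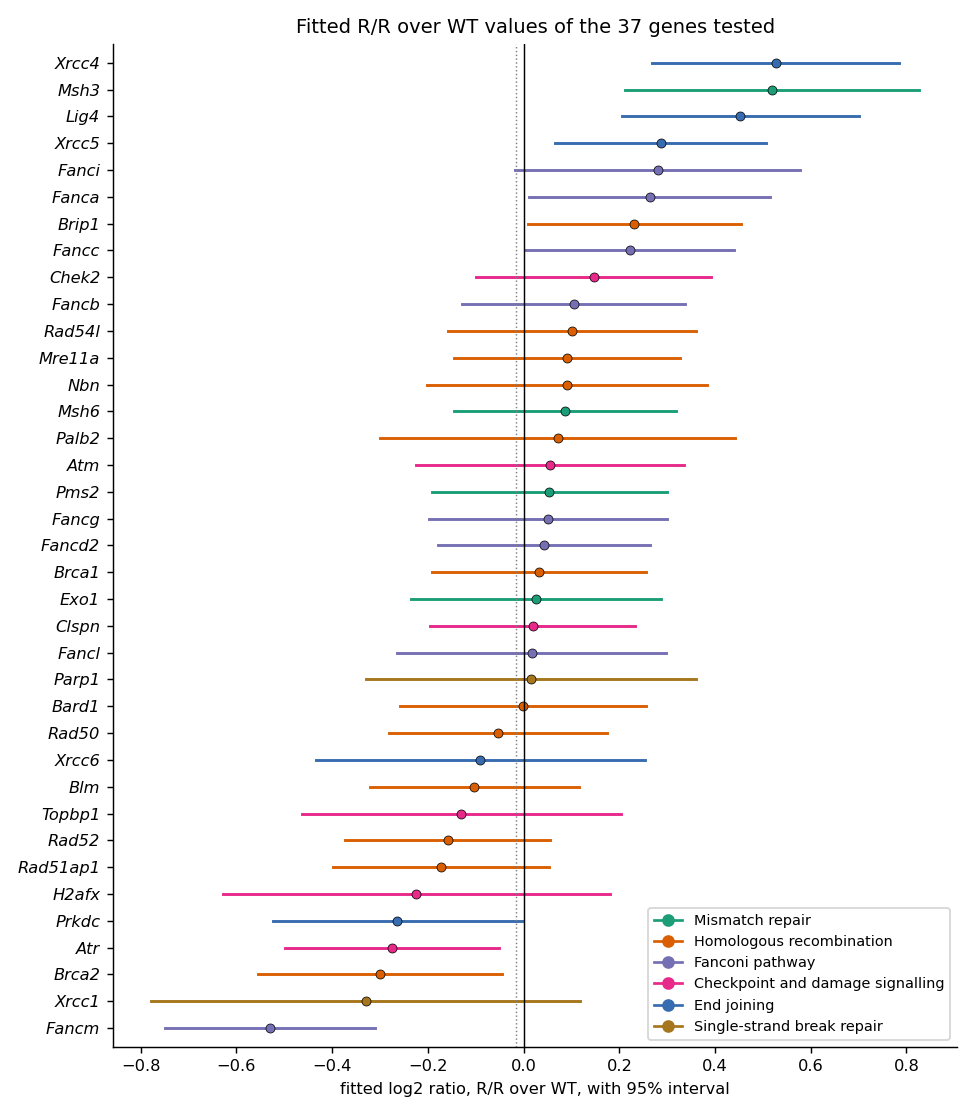
Fitted log2 ratio of R/R over WT (horizontal axis) for the 37 genes, sorted from the highest to the lowest, with points coloured by group and bars for the 95% interval. The dotted line is the median of all 20049 genes, -0.02, and Xrcc4 and Fancm mark the ends at 0.53 and -0.53.

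End joining had the highest median of the groups, 0.29 over 5 genes, and the same group median was positive on every array (0.23, 0.21, 0.28 and 0.34). This median belongs to the 5 genes chosen, and other end joining genes, given with the wider list below, were mostly below 0. Of the 5 genes, 3 were above 0 and 1 below at an unadjusted p under 0.05. Besides Xrcc4 and Lig4 these were Xrcc5, which encodes Ku80 of the end-binding Ku dimer, and Prkdc, which encodes the kinase that Ku recruits. Xrcc5 had 0.17, 0.21, 0.31 and 0.34, all above 0, with a fit of 0.29 ± 0.09 (limma adjusted p = 0.234). Prkdc had -0.12, -0.13, -0.43 and -0.30, all below 0, with a fit of -0.26 ± 0.10 (limma adjusted p = 0.318). Xrcc6, which encodes the Ku70 partner of Ku80, had 0.23 in clone 1 and -0.26, -0.36 and -0.05 on the other arrays, with a fit of -0.09 ± 0.14 (limma adjusted p = 0.784). The Ku partners thus shared a sign in clone 1 only, and genes of the same route lay on both sides of 0.

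Mismatch repair had a median of 0.07 over 4 genes, with Msh3 apart from the other members. Msh6, whose protein recognises base mismatches, had -0.0091, -0.06 and -0.22 in the clones and 0.27 in the pool (fit 0.09 ± 0.09, limma adjusted p = 0.690). The pool thus lay outside the range of the clones. Pms2, which encodes the nicking subunit of this route, had 0.0039, 0.10, 0.28 and -0.02 (fit 0.05 ± 0.10, limma adjusted p = 0.820), and its second probe gave 0.10. Exo1, the exonuclease that removes the mismatched strand, had 0.25, 0.09, -0.10 and -0.03 (fit 0.03 ± 0.10, limma adjusted p = 0.922). None of these 3 genes kept 1 sign over the arrays.

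Homologous recombination had a median of 0.02 over 12 tested genes, with 6 above and 6 below 0, and its medians by array were -0.02, -0.0003, -0.12 and 0.10. The median was below 0 under some alternatives, such as -0.068 with the scanner's own ratios and -0.039 over the clones alone. Among genes of the BRCA1 complexes, Brip1, which encodes a helicase that binds BRCA1, had 0.19, 0.07, 0.22 and 0.30, all above 0 (fit 0.23 ± 0.09, unadjusted p = 0.0440, limma adjusted p = 0.308). Brca1 itself, a ubiquitin ligase subunit that directs breaks to recombination, had 0.0001, 0.04, -0.12 and 0.09 (fit 0.03 ± 0.09, limma adjusted p = 0.886). The Brca1 probe was dim, well above background on 2 of 4 arrays in the R/R channel and on 4 of 4 in the WT channel, and the scanner's own ratios gave -0.51 (limma adjusted p = 0.267). Bard1, the partner of BRCA1 in that ligase, had -0.03, -0.0059, -0.31 and 0.11 (fit -0.0018 ± 0.10, limma adjusted p = 0.994), and dimmer Bard1 probes gave 0.08 and 0.09. Palb2, which links BRCA1 to BRCA2, had 0.07, 0.29, -0.40 and 0.16 (fit 0.07 ± 0.15, limma adjusted p = 0.844). Its second probe gave -0.16, so the Palb2 probes differed in sign.

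Brca2, a tumour suppressor gene of strand exchange, was the lowest of the recombination genes. Its ratios were -0.44, -0.38, -0.13 and -0.28, all below 0, with a fit of -0.30 ± 0.10 (unadjusted p = 0.0283, limma adjusted p = 0.264). Rad52, which encodes a strand-annealing protein, had -0.13, -0.14, -0.19 and -0.16, among the closest agreement between arrays in the set (fit -0.16 ± 0.09, limma adjusted p = 0.436). Blm, which encodes a helicase that dissolves crossed strands, had -0.12, -0.0031, -0.10 and -0.13 (fit -0.10 ± 0.09, limma adjusted p = 0.599). These 3 genes were below 0 on every array. Rad51ap1, which encodes a protein that promotes strand pairing, had -0.07, 0.0025, -0.17 and -0.26 (fit -0.17 ± 0.09, limma adjusted p = 0.427). Rad54l, which encodes a motor that helps strands pair, had 0.22, 0.14, -0.11 and 0.12 (fit 0.10 ± 0.10, limma adjusted p = 0.671).

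The MRN complex, which senses and trims broken ends, showed no shared direction. Mre11a, its nuclease, had -0.13, -0.12, 0.08 and 0.24 (fit 0.09 ± 0.09, limma adjusted p = 0.677). Rad50, its tethering subunit, had 0.03, 0.06, -0.12 and -0.10 (fit -0.05 ± 0.09, limma adjusted p = 0.809), with 0.02 by a second probe. Nbn, which brings ATM to the complex, had 0.19, -0.26, 0.05 and 0.19 (fit 0.09 ± 0.12, limma adjusted p = 0.742). Each of the 3 genes took both signs over the arrays.

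Of the 8 genes grouped here under the Fanconi pathway, 7 had fitted values above 0 and Fancm was the only one below it. The group median was 0.08, with medians by array of 0.16, 0.13, 0.07 and 0.15. Of the 7, Fancl, Fancd2 and Fancg lay within 1 SE of 0 and changed sign under at least 1 alternative. Among the core complex genes, Fanca had 0.16, 0.15 and -0.12 in the clones and 0.46 in the pool (fit 0.26 ± 0.10, unadjusted p = 0.0436, limma adjusted p = 0.307). Fancc had 0.24, 0.34, 0.24 and 0.17, all above 0 (fit 0.22 ± 0.09, unadjusted p = 0.0472, limma adjusted p = 0.317), with 0.31 by a second probe. Fancb, at 0.16, -0.05, 0.12 and 0.14 (fit 0.10 ± 0.09, limma adjusted p = 0.620), and Fancg, at -0.07, 0.10, 0.23 and 0.01 (fit 0.05 ± 0.10, limma adjusted p = 0.836), were each below 0 on 1 array. Fancl, which encodes the ubiquitin ligase of the core complex, had -0.19, -0.34, 0.08 and 0.18 (fit 0.02 ± 0.11, limma adjusted p = 0.956), with 0.05 by a second probe. Fancc was the only core complex gene above 0 on every array.

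The core complex ubiquitinates the FANCD2 and FANCI pair, which then calls in nucleases. Fanci had 0.41, 0.15, -0.07 and 0.40 (fit 0.28 ± 0.12, unadjusted p = 0.0604, limma adjusted p = 0.347). Fancd2 had 0.20, 0.15, 0.05 and -0.05 (fit 0.04 ± 0.09, limma adjusted p = 0.842). Clone 3 was the lowest of the clones for both genes.

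**Figure D3:**
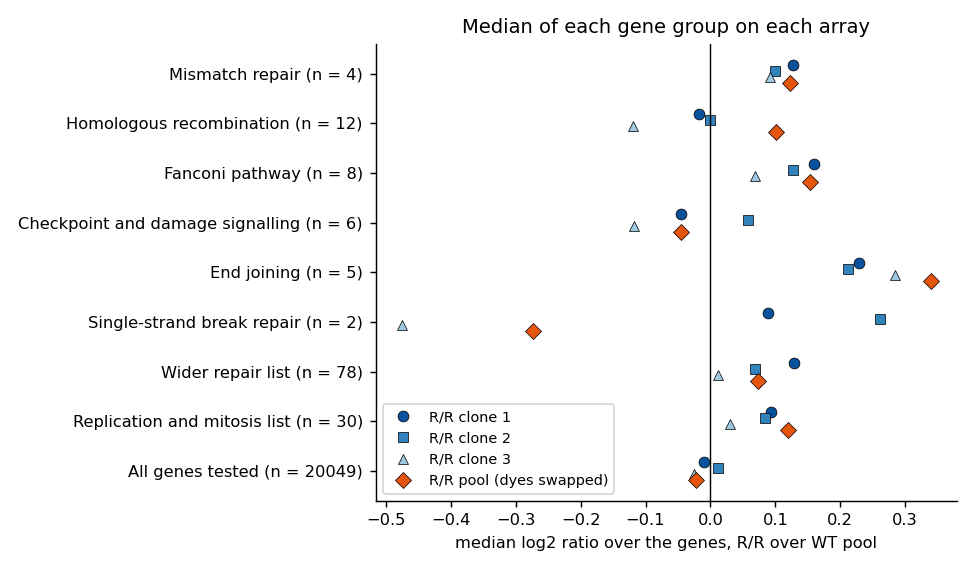
Median log2 ratio of R/R over WT (horizontal axis) over the genes of each group, 1 point per array, for the repair groups, the wider repair list, the replication and mitosis list and all 20049 genes. End joining is above 0.2 on every array, while the median of the 2 single-strand break repair genes lies between -0.48 and 0.26.

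Checkpoint and damage signalling genes had a median of -0.06 over 6 tested genes, 3 of them above 0. By array the medians were -0.05, 0.06, -0.12 and -0.04, so clones 1 and 3 were below 0 as well as the pool. The sign of the median of fitted values changed with the weight of the pool. It was 0.065 over the clones alone and 0.0049 without the dye term. Atr, the kinase of stalled forks, had -0.27, -0.12, -0.27 and -0.33, all below 0 (fit -0.28 ± 0.09, unadjusted p = 0.0243, limma adjusted p = 0.248). Atm, the kinase of double-strand breaks, had 0.20, 0.29, -0.11 and -0.02 (fit 0.05 ± 0.11, limma adjusted p = 0.843), with 0.09 by a second probe. Chek2, the kinase below ATM, had 0.17, 0.02, 0.31 and 0.13, all above 0 (fit 0.15 ± 0.10, limma adjusted p = 0.514). Topbp1, which encodes the activator of ATR, had 0.36 in clone 2 and -0.18, -0.12 and -0.28 on the other arrays (fit -0.13 ± 0.13, limma adjusted p = 0.670). Clspn, which encodes the adaptor between ATR and CHK1, had 0.09, 0.10, 0.15 and -0.07 (fit 0.02 ± 0.09, limma adjusted p = 0.931). Its 3 clones were nearly equal and the pool lay on the other side of 0.

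H2afx (H2ax in RefSeq), the histone variant phosphorylated around breaks, spread more widely than the other checkpoint genes. Its ratios were -1.08, -0.33 and -0.48 in the clones and 0.18 in the pool, so the pool lay apart from all 3 clones. The fit, which weighs the pool as much as the clone average, gave -0.22 ± 0.16 (limma adjusted p = 0.543), and the clone average alone was -0.63. The SD of the clones, 0.40, was at percentile 90.2 of all genes.

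The single-strand break repair genes also differed between clones. Xrcc1, which encodes the scaffold of this route, had -0.09, 0.13, -0.75 and -0.42 (fit -0.33 ± 0.18, limma adjusted p = 0.439). Parp1, which encodes the break sensor that recruits XRCC1, had 0.27, 0.39, -0.20 and -0.12 (fit 0.02 ± 0.14, limma adjusted p = 0.965). In both genes clone 3 and the pool were below clones 1 and 2. Each clone had 1 array, so the differences between clones were not tested. The clone SD was 0.46 for Xrcc1, the widest of the 37 genes and at percentile 92.9 of all genes. H2afx, Palb2, Parp1, Xrcc6 and Topbp1 followed at 0.40, 0.35, 0.31, 0.31 and 0.30, while Clspn and Rad52 had the smallest, both 0.03. The pool lay outside the range of the clones for 17 of 37 genes (45.9%), beside 45.1% of all genes.

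The E2F letters were set against a wider background, with promoters of 250 bases before to 50 after the start. The start used can lie inside the span of the gene, as for Xrcc6, whose span begins at chr15:81987833. RefSeq stretches were matched for 33 of the 39 genes, and those of Fancd2, Rad50, Nbn, Prkdc, H2afx and Exo1 were not used here. Of 31 tested and matched genes 9 (29.0%) held an E2F word, compared with 442 of 9835 tested and matched genes of the array (4.49%). CCAAT was found in 19 of 31 (61.3%, against 42.9%) and the NRF1 word in 5 of 31 (16.1%, against 5.78%), these being Atm, Fanci, Fancm, Lig4 and Xrcc5. The 8 tested genes with an E2F word besides Msh3 are shown with 10 bases on each side of it, on the strand of the gene, with the word in capitals.
Msh6, chr17:87975055-87975082: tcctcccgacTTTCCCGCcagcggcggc
Brca2, chr5:150522443-150522470: ttaggccacaGCGGGAAAcagacacaca
Bard1, chr1:71103164-71103191: cgccgctcagTTTCCCGCtcaggaagtt
Fancg, chr4:43010336-43010363: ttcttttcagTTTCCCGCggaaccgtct
Chek2, chr5:110839821-110839848: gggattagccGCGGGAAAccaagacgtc
Clspn, chr4:126556991-126557018: ccgcgtctggGCGCGAAAgctcgaactt
Topbp1, chr9:103305188-103305215: cgctcggttgGCGCGAAAgtcggttccc
Xrcc6, chr15:82016313-82016340: gggggtggaaGCGGGAAAtgcgagtggg
Values of the genes with and without the word overlapped. The 9 genes that held it had a median log2 ratio of 0.02, with 5 above 0 and a range of -0.30 for Brca2 to 0.52 for Msh3. The 22 without it had a median of 0.06, with 16 above 0. Over the 9835 tested and matched genes of the array the medians were 0.02 for the 442 genes with the word and 0.0014 for the 9393 without it. A missing word says only that these letters are not in this window.

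Many repair genes start back to back with another gene. A partner on the opposite strand within 1000 bases was found for 13 of the 31 tested and matched genes (41.9%), compared with 18.8% of the 9835. Of those partners 9 were tested, and their values were looked up after those of the repair genes had been seen. Tmem167, which starts 59 bases from Xrcc4, had 0.20, 0.63, 0.43 and 0.70 (fit 0.56 ± 0.11, limma adjusted p = 0.130), above 0 on every array like Xrcc4 and lowest in the same clone. Abhd13, which starts 37 bases from Lig4, had 0.03, -0.01, 0.25 and -0.27 (fit -0.09 ± 0.10, limma adjusted p = 0.683) and so took both signs where Lig4 did not. Aimp2, 162 bases from Pms2, had a fit of 0.43 ± 0.12 (limma adjusted p = 0.193). The other 6 tested partners, those of Brca1, Fancb, Mre11a, Palb2, Rad51ap1 and Xrcc6, had fitted values from -0.17 to 0.01.

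Prkdc has a neighbour of known role in replication, and this pair was also chosen after its values were seen. Mcm4, a helicase gene separated from Prkdc by 43 bases, had 0.50, 0.46, -0.24 and 0.14 (fit 0.19 ± 0.17, limma adjusted p = 0.611). Prkdc was below 0 on every array and Mcm4 on 1 of 4.

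**Figure D4:**
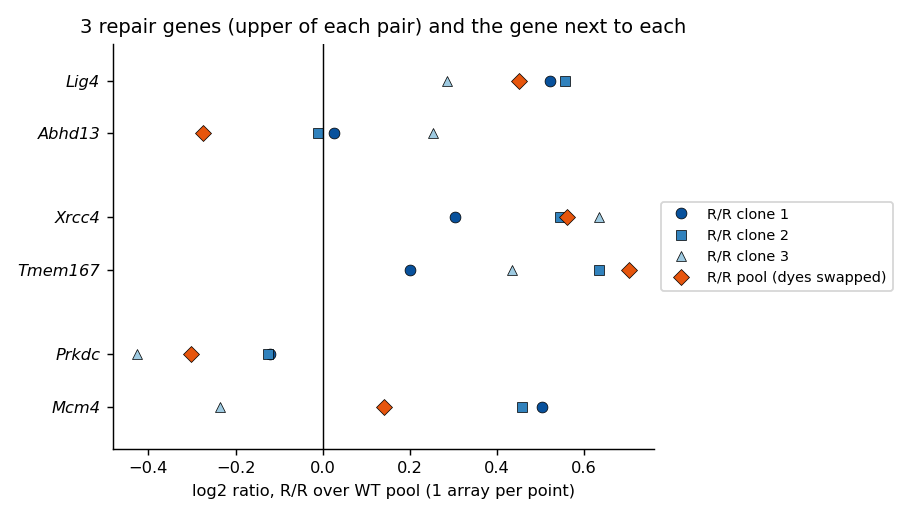
Log2 ratio of R/R over WT (horizontal axis) on each array for 3 repair genes and, under each, the neighbouring gene. Xrcc4 and Tmem167 are both above 0 on every array, while Abhd13 and Mcm4 take both signs.

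A wider list of 80 genes of the same and related routes gave 78 tested genes, again with 0 called. At an unadjusted p under 0.05, 5 were above 0 and 2 below (8.97%, beside 15.4% of all genes). The median was 0.06, with 49 genes above 0. The highest was Ercc8, which encodes a ubiquitin ligase subunit of transcription-coupled repair, at 0.71, 0.88, 0.83 and 0.64 (fit 0.72 ± 0.09, limma adjusted p = 0.0522). It was followed by Xrcc2, a recombination gene, at 0.34 ± 0.11 and Polh, a polymerase that copies past ultraviolet lesions, at 0.32 ± 0.09. Ercc8 lay further from 0 than any of the 37 genes above.

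The lowest of the wider list was Alkbh3, which encodes an enzyme that removes alkyl groups from DNA, at -0.48 ± 0.15. Rad9a, a subunit of the clamp that helps activate ATR, had -0.36, -0.29, -0.29 and -0.48, all below 0 (fit -0.40 ± 0.09, limma adjusted p = 0.144). Ung, which removes uracil from DNA, had -0.30 ± 0.15. The list was counted in blocks of its order, named by their main route, and a block can hold genes of another route. Above 0 were 11 of 15 checkpoint genes and 8 of 10 damage tolerance genes. So were 8 of 13 nucleotide excision genes and 8 of 14 base excision genes, beside 46.4% of all genes. The counts were 7 of 14 for recombination genes and 7 of 12 for crosslink, end joining and other genes. Among the latter, the end joining genes Nhej1, Dclre1c and Poll had fits of -0.13, -0.16 and -0.17, and Polm had 0.10. The median of 0.29 of the end joining group above was thus not shared by these genes.

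Replication and mitosis genes were taken beside the repair genes, because many repair genes follow the cell cycle and the cultures were asynchronous. Of 30 tested genes 0 were called, and 10 were above 0 and 0 below at an unadjusted p under 0.05 (33.3%, beside 15.4% of all genes). Their median was 0.11, and by array it was 0.09, 0.08, 0.03 and 0.12. The part of cycling in the values of the repair genes was not tested.

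**Figure D5:**
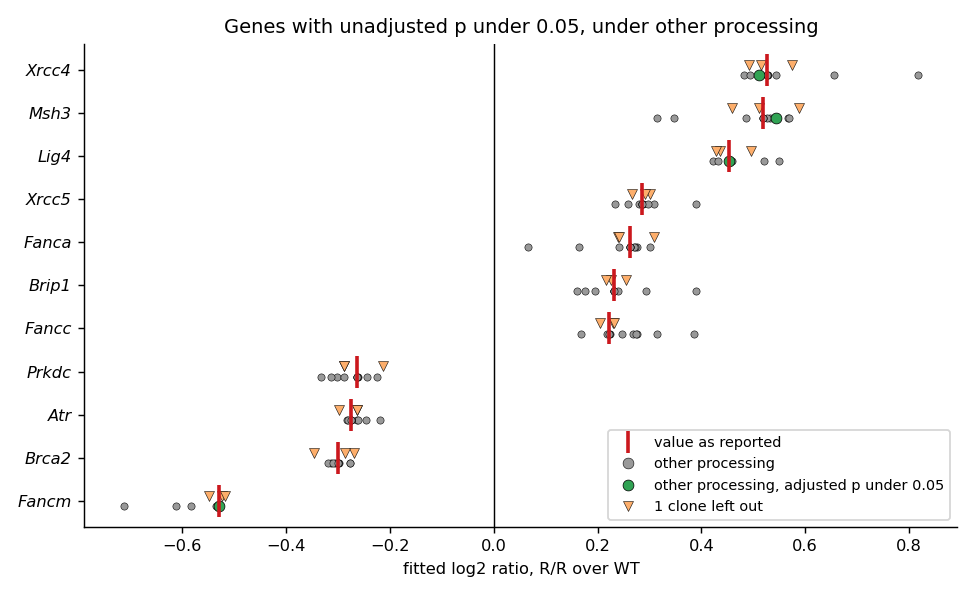
Fitted log2 ratio of R/R over WT (horizontal axis) of the 11 genes with an unadjusted p under 0.05, under the main setting (red bars), other processing (grey), the fit without a dye term where it called the gene (green) and with 1 clone left out (triangles). No gene crosses 0, and the values of Fanca run down to 0.07.

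All 11 genes with an unadjusted p under 0.05 kept their sign under every alternative that was run. They were picked by p in the main fit of the same arrays, and all but Fanca had the same sign on every array. For those genes, settings that only leave out or reweight arrays could not turn the sign, so keeping it there is no test. Only settings that change the ratios themselves could turn it. No share over all genes is given for comparison. The range was -0.71 to -0.52 for Fancm, 0.48 to 0.82 for Xrcc4, 0.42 to 0.55 for Lig4 and 0.31 to 0.59 for Msh3. Of the 37 genes, 23 kept their sign under each alternative and 14 did not, and the 14 had fitted values between -0.13 and 0.09.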

How the data were processed

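Intensity values are, per the file headers, uncorrected median brightnesses of each spot and its surroundings (Feature Extraction 11.5.1.1). The scanner's log10 ratios, Cy5 over Cy3 after its own processing per the file headers, served as an alternative. The log2 values deposited by the authors were not used, because their row numbers match no probe. In limma 3.58.1 (R 4.3.3), normexp with offset 50 was followed by loess on each array, ignoring control spots. Spots marked as outliers (210 to 265 an array) were dropped and repeated spots averaged. A probe was kept (26450 in all) if its R/R signal, or its WT signal, was well above background on 3 or 4 of 4 arrays. The brightest probe stood for its gene, and 12299 of the 20049 genes had a symbol, through RefSeq accessions (GRCm38.p6). Of 55681 probes, 28025 had no symbol here. The fit had a genotype and a dye term (2 residual degrees of freedom), two-sided tests and Benjamini-Hochberg adjustment over all genes. It was also run on simulated data of 4 independent arrays. That run did not cover the shared WT pool or a pool made of the same clones. Labels name separate clones but not separate animals, and p-values measure only the spread between the 3 clones, moderated over all genes. All 39 genes are named, and of the wider list the 3 highest, the 3 lowest and the end joining genes Nhej1, Dclre1c, Poll and Polm. Genes and lists were chosen with earlier results of these data known. All 4 arrays lay on 1 slide. The number of arrays limits the precision.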

Additional observations from a re-analysis of the deposited data

How the results depend on the processing

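The fit without a dye term called 490 genes higher and 650 lower in R/R over all genes, and among the repair genes 3 higher and 1 lower. At an adjusted p under 0.10, 107 and 203 genes and, among the repair genes, 1 lower (Fancm) were called. No repair gene was called under any other setting that was run. Scanner log ratios called 6 genes higher and 44 lower, median centring 2 and 28, and the strict filter 48 lower. With 1 clone left out, 12 to 88 genes were called higher and 49 to 176 lower, most without clone 3 and fewest without clone 1. Group medians moved with scanner ratios to -0.068 for homologous recombination, 0.15 for the Fanconi pathway and 0.39 for end joining. With the clones alone they moved to 0.11 for mismatch repair, 0.065 for checkpoint genes and 0.23 for end joining, and with 1 clone left out mismatch repair ran from 0.068 to 0.095, homologous recombination from -0.017 without clone 2 to 0.051 without clone 3, checkpoint genes from -0.10 to -0.028 and single-strand break repair from -0.23 to -0.049. The causes were not tested.

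Of 525 alternative values of single genes 27 changed sign, from fitted values between -0.13 and 0.09. They were Brca1 with scanner ratios (-0.51, from a dim probe), and with median centring Bard1 (0.017), Fancg (-0.018), Fancd2 (-0.0059) and Clspn (-0.020). Scaling gave Bard1 0.0025. The mean of probes gave Bard1 0.0545 and Palb2 -0.045, and the second probe Bard1 0.087, Palb2 -0.16 and Rad50 0.022. The clones alone gave Msh6 -0.10, Brca1 -0.024, Palb2 -0.015, Mre11a -0.054, Nbn -0.0083, Fancl -0.15 and Topbp1 0.021. No dye term gave Msh6 -0.0045 and Fancl -0.066, and clones 1 and 2 averaged gave Parp1 -0.029. With 1 clone left out the values ran from -0.016 to 0.072 for Exo1, -0.044 to 0.10 for Parp1, -0.0039 to 0.17 for Palb2, -0.030 to 0.047 for Bard1 and -0.041 to 0.063 for Fancl.

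The deposited log2 table was not run as an alternative, since its rows could not be paired with probes. Each array holds both RNAs, so the ratios already pair R/R with WT within an array. The clone and pool groups share only 1 replicate number, and no pairing between these groups was made. Brca1 and Chek1 were limited by dim probes.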
